A study of Mus musculus with 6 samples.

Results

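MHC class I presentation genes encode the proteins that make peptides, carry them into the endoplasmic reticulum and display them on the cell surface. The 10 genes described here, chosen by symbol, were *H2-K1*, *H2-D1*, *H2-T23*, *B2m*, *Tap1*, *Tap2*, *Tapbp*, *Psmb8*, *Psmb9* and *Nlrc5*. They are 10 of the 55367 genes in the deposited table, and all 10 were among the 16746 genes tested. Their RNA levels were compared between *Piezo1 cKO* and WT leukemia stem cells (LSCs), with 3 libraries per group.

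The study asked what loss of PIEZO1, a mechanically gated cation channel, does to acute myeloid leukemia (AML). *Piezo1 cKO* donors were *Mx1-cre; Piezo1 fl/fl* mice, and WT donors were *Piezo1 fl/fl* littermates without Cre, on a C57BL/6J background and 8 to 10 weeks old. Both genotypes received poly(I:C) 3 times, so the floxed alleles and this interferon-inducing agent were shared by both groups. Lin- marrow cells of either genotype were transduced with a retrovirus carrying MLL-AF9 and YFP and transplanted into irradiated recipients, and YFP+ LSCs were sorted from the marrow of leukemic mice as Lin- Sca-1- c-Kit+ CD16/32 hi CD34+ cells. *Mx1-cre* is switched on by interferon in many cell types, and it was carried by the *Piezo1 cKO* group alone, so carriage of Cre and loss of *Piezo1* cannot be told apart.

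Nearly all nucleated cells carry MHC class I molecules, each made of a heavy chain, the light chain β2-microglobulin and a short peptide. Proteasomes, including the immunoproteasome of hematopoietic and interferon-treated cells, cut proteins into peptides, the TAP transporter pumps these into the endoplasmic reticulum, and tapasin helps to load them. CD8+ T cells read the displayed peptides, while NK cells sense the loss of class I molecules, and leukemia cells can escape T cells by lowering them.

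The deposited values are log2 values pulled towards each gene's own mean, so differences on that scale are smaller than those of the reads. This pull could be undone, and all 60 of 60 values of the 10 genes came out within 0.1 of a whole number of reads. Recovered reads on genes numbered 15406271, 14745612 and 15483615 in WT libraries 1 to 3 and 14112122, 15094245 and 14456743 in *Piezo1 cKO* libraries 1 to 3. Levels below are normalized reads, that is recovered reads divided by each library's size factor (0.957 to 1.04), and tests are limma on the deposited log2 values with Benjamini-Hochberg adjustment over all 16746 genes unless recovered reads are named. The labels do not say that the libraries came from separate mice, so the p-values measure only the spread between these libraries, which may be technical. In bulk samples, fewer cells of a type and less RNA per cell cannot be told apart.

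*Piezo1*, the deleted gene, had 101, 92.8 and 109 normalized reads in the WT libraries and 36.6, 56.5 and 45.8 in the *Piezo1 cKO* libraries. Every *Piezo1 cKO* library lay below every WT library, although reads over the whole gene, deleted or not, were counted (log2 fold change -0.29, limma adjusted p = 5.8e-06).

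Of the 10 class I genes, 9 were higher in *Piezo1 cKO* LSCs at an adjusted p under 0.05, 0 were lower and 1, *Tapbp*, passed in neither direction. Among all genes tested with limma, 31.6% were higher and 31.4% lower by the same rule, or 5298 and 5258 genes, and 6450 and 4214 when the libraries were set to equal medians. The median log2 fold change of the 10 genes was 0.30 on the deposited scale, beside 0.00 over all genes tested. On recovered reads tested with limma-voom, 9 of the 10 genes were again higher and 0 lower, where 31.6% of 17352 genes were higher, and their median log2 fold change was 0.47. At an unadjusted p under 0.05, 0 of the 10 were lower with limma and 1, *Tapbp*, with limma-voom. The study's thresholds for differentially expressed genes (DEGs), an absolute log2 fold change over 1 with an adjusted p under 0.05, were passed by 0 of the 10 on either scale, while 0.818% of all genes passed them on the deposited scale and 24.9% on recovered reads. In 9 of the 10 genes every *Piezo1 cKO* library lay above every WT library, as in 33.5% of all genes tested. Together the 10 genes took 0.343%, 0.352% and 0.349% of the reads in the WT libraries and 0.454%, 0.464% and 0.454% in the *Piezo1 cKO* libraries.

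**Figure D1:**
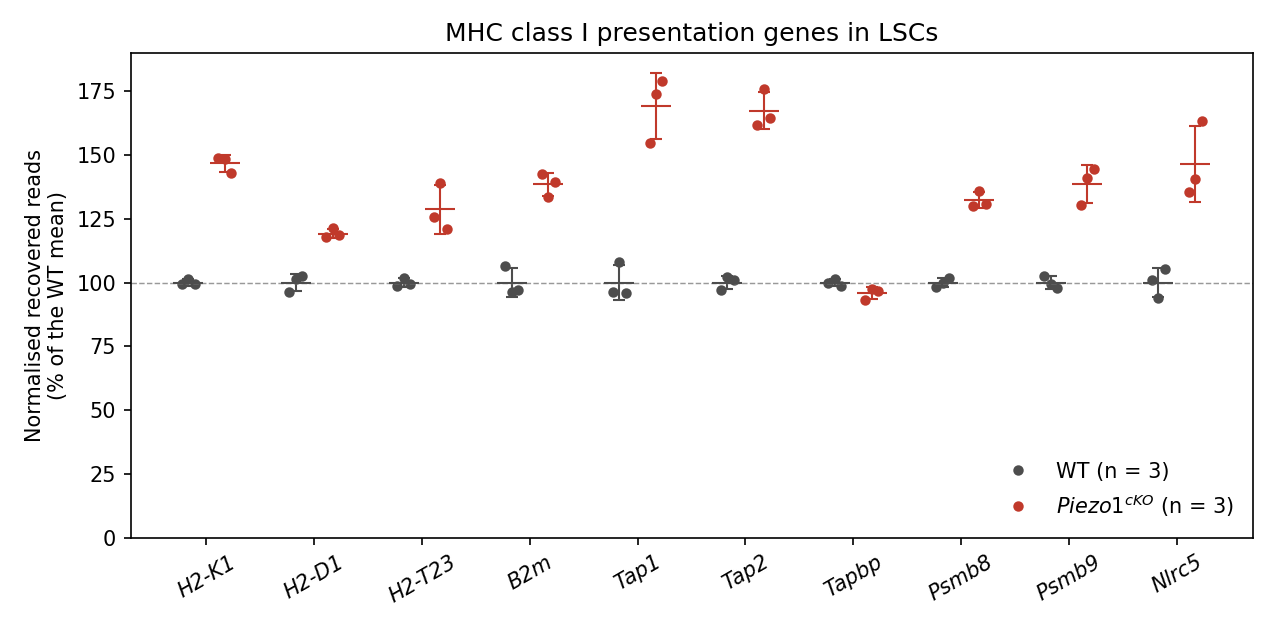
Normalized recovered reads of the 10 class I genes in each library, as a percentage of the gene's WT mean; dots are libraries (3 per group) and bars show the mean ± SD. In *Piezo1 cKO* libraries 9 genes lay above all WT libraries, with means from 119% (*H2-D1*) to 169% (*Tap1*) of WT, and *Tapbp* lay below them at 95.8%.

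Heavy chains form the peptide groove of the class I molecule. *H2-K1*, which encodes the classical heavy chain K, had 15352, 15679 and 15340 normalized reads in the WT libraries and 23000, 22969 and 22084 in the *Piezo1 cKO* libraries. The 3 *Piezo1 cKO* libraries were all far above the 3 WT libraries, which lay close together (SD 192 around a mean of 15457). The log2 fold change was 0.41 ± 0.02 (SE, limma adjusted p = 4.34e-13) on the deposited scale and 0.55 on recovered reads, a mean ratio of 1.47. *H2-D1*, the other classical heavy chain gene of this strain, had 15740, 16589 and 16811 normalized reads in WT and 19285, 19851 and 19412 in *Piezo1 cKO* libraries. Again the groups did not overlap, but the step between them was smaller, with a log2 fold change of 0.19 ± 0.02 (limma adjusted p = 1.41e-07) and a mean ratio of 1.19.

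*H2-T23* encodes Qa-1, a nonclassical heavy chain that presents leader peptides of other class I chains to the receptor CD94/NKG2A. It had 413, 426 and 416 normalized reads in WT and 527, 582 and 506 in *Piezo1 cKO* libraries. The WT libraries were nearly alike and the *Piezo1 cKO* libraries more spread (SD 6.68 and 39.4), without overlap. Its log2 fold change was 0.21 ± 0.04 (limma adjusted p = 9.75e-05) on the deposited scale and 0.36 on recovered reads.

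The classical heavy chains moved unequally. Per kilobase of exon, the ratio of *H2-K1* to *H2-D1* was 0.856, 0.830 and 0.801 in WT and 1.05, 1.02 and 0.999 in *Piezo1 cKO* libraries. The ranges did not overlap (exact two-sided permutation p = 0.1, the smallest that 3 against 3 libraries can give). Exon length was the union of all annotated exons of a gene, 2938 bases for *H2-K1* and 2579 for *H2-D1*. On these lengths *H2-D1* stood above *H2-K1* in every WT library. In *Piezo1 cKO* LSCs the means were 7721 ± 177 for *H2-K1* and 7567 ± 115 for *H2-D1*, closer to each other than the sum of their SDs. In normalized reads, however, *H2-K1* lay above *H2-D1* in every *Piezo1 cKO* library, so the order within a group rests on the lengths used. The change in the ratio between groups does not.

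*B2m* encodes β2-microglobulin, without which heavy chains do not reach the surface. It had 4649, 4210 and 4240 normalized reads in WT and 6224, 5834 and 6085 in *Piezo1 cKO* libraries. WT library 1 stood above the other WT libraries but well below every *Piezo1 cKO* library. The log2 fold change was 0.34 ± 0.03 (limma adjusted p = 7.27e-09) on the deposited scale and 0.47 on recovered reads. Per kilobase, *H2-K1* and *H2-D1* summed to 2.10, 2.40 and 2.38 times the level of *B2m* in WT and 2.11, 2.29 and 2.13 times in *Piezo1 cKO* libraries. These ranges overlapped, and the difference was within the spread between libraries (exact two-sided permutation p = 0.4).

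TAP is a dimer of the products of *Tap1* and *Tap2*. *Tap1* had 1074, 1206 and 1073 normalized reads in WT and 1728, 1946 and 2002 in *Piezo1 cKO* libraries. *Tap2* had 1653, 1741 and 1725 in WT and 2763, 2999 and 2806 in *Piezo1 cKO* libraries. In both genes the lowest *Piezo1 cKO* library was far above the highest WT library, and their mean ratios, 1.69 and 1.67, were the largest of the 10 genes. Log2 fold changes on the deposited scale were 0.52 ± 0.04 for *Tap1* (limma adjusted p = 2.31e-09) and 0.52 ± 0.03 for *Tap2* (limma adjusted p = 3.35e-11), and 0.76 and 0.74 on recovered reads. The ratio of *Tap1* to *Tap2* per kilobase was 0.452 ± 0.0247 in WT and 0.457 ± 0.0316 in *Piezo1 cKO* libraries (mean ± SD, n = 3, exact two-sided permutation p = 0.8), with overlapping ranges.

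*Tapbp* encodes tapasin, which bridges TAP and the empty class I molecule. It was the exception, with 7259, 7373 and 7146 normalized reads in WT and 6759, 7068 and 7031 in *Piezo1 cKO* libraries. Every *Piezo1 cKO* library lay below every WT library, but by little, and the difference did not pass the test (log2 fold change -0.046 ± 0.022 (SE), 95% interval -0.091 to 9.7e-05, limma adjusted p = 0.0757). On recovered reads the adjusted p was 0.0577, and over the alternatives tried it ran from 0.0109 to 0.371. Relative to the sum of *Tap1* and *Tap2* per kilobase, *Tapbp* stood at 3.16, 2.99 and 3.02 in WT and 1.78, 1.70 and 1.75 in *Piezo1 cKO* libraries. This ratio was lower in all 3 *Piezo1 cKO* libraries than in any WT library (exact two-sided permutation p = 0.1, the smallest possible).

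The immunoproteasome replaces the catalytic subunits of the standard proteasome with inducible ones and favours peptides that fit class I grooves. *Psmb8*, which takes the place of *Psmb5*, had 4213, 4284 and 4355 normalized reads in WT and 5576, 5828 and 5604 in *Piezo1 cKO* libraries. *Psmb9*, which takes the place of *Psmb6*, had 796, 772 and 758 in WT and 1010, 1093 and 1120 in *Piezo1 cKO* libraries. Both genes were higher in every *Piezo1 cKO* library than in any WT library. Log2 fold changes were 0.29 ± 0.02 for *Psmb8* (limma adjusted p = 4.56e-09) and 0.31 ± 0.03 for *Psmb9* (limma adjusted p = 3.93e-07) on the deposited scale, and 0.40 and 0.47 on recovered reads.

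Of a list of 5 standard proteasome counterparts, 0 were higher and 3 lower with limma, beside 31.6% and 31.4% of all genes tested. A list of 5 is too short to set these counts apart from those shares. At an unadjusted p under 0.05 the counts were also 0 and 3, with limma as with limma-voom. *Psmb5* (log2 fold change -0.11) and *Psmb7* (-0.16), both catalytic subunits, were lower, while *Psmb6* (0.04) and the activator gene *Psme4* (0.02) did not pass the test. *Psme3*, which encodes a nuclear proteasome activator, was far lower, with 7890, 7589 and 7916 normalized reads in WT and 3361, 3132 and 3125 in *Piezo1 cKO* libraries (log2 fold change -0.93, limma adjusted p = 5.51e-16). Per kilobase, the ratio of *Psmb8* to *Psmb5* was 1.36 ± 0.0350 in WT and 2.03 ± 0.0285 in *Piezo1 cKO* libraries, and that of *Psmb9* to *Psmb6* was 0.0426 ± 0.00200 and 0.0569 ± 0.00264 (mean ± SD, n = 3, exact two-sided permutation p = 0.1 for each). The third inducible subunit gene, *Psmb10*, had a log2 fold change of 0.00 (limma adjusted p = 0.934), and its ratio to its counterpart *Psmb7* went from 14.4 ± 1.33 to 18.3 ± 1.22 (exact two-sided permutation p = 0.1) while *Psmb7* fell. All 3 ratios were higher in every *Piezo1 cKO* library than in any WT library.

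*Nlrc5* encodes the transactivator of class I genes, which acts through a complex of RFX, CREB/ATF and NF-Y factors bound to their promoters. It was the scarcest of the 10 genes, with 74.7, 69.6 and 77.9 normalized reads in WT and 100.3, 104 and 121 in *Piezo1 cKO* libraries. The groups did not overlap, and the *Piezo1 cKO* libraries were the more spread (coefficients of variation 5.64% and 10.2%). The log2 fold change was 0.16 ± 0.04 (limma adjusted p = 1.17e-03) on the deposited scale and 0.54 ± 0.14 on recovered reads (limma-voom adjusted p = 2.74e-03), the widest gap between the scales among the 10 genes. Per kilobase, *Nlrc5* had 8.72 ± 0.492 normalized reads in WT and 12.8 ± 1.30 in *Piezo1 cKO* libraries.

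Ordered by normalized reads per kilobase in WT, the genes ran *H2-D1*, *H2-K1*, *B2m*, *Tapbp*, *Psmb8*, *Tap2*, *Psmb9*, *Tap1*, *H2-T23* and *Nlrc5*. The classical heavy chains and the light chain were at 5077 to 6351, *Tapbp* at 2001 ± 31.3 and the nonclassical heavy chain gene *H2-T23* at 145. *H2-K1* (5261 ± 65.4) and *B2m* (5077 ± 285) did not differ beyond their spread, nor did *Psmb9* (212 ± 5.18) and *Tap1* (204 ± 13.98). In *Piezo1 cKO* LSCs the latter pair changed places, at 294 ± 15.7 for *Psmb9* and 346 ± 26.5 for *Tap1*. *H2-D1* (7567 ± 115) and *H2-K1* (7721 ± 177) did so too, but lay closer than the sum of their SDs. These orders rest on the annotated exon lengths, and in normalized reads *Tap1* lay above *Psmb9* in both groups.

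Genes with the most similar profile over the 6 libraries were sought among 12052 genes, as the smallest root mean square difference of log2 values centred on each gene's mean. For *B2m* these were *Tcp11l2* (0.00890), *Ppa2* (0.0149) and *Nmnat3* (0.0164). For *Nlrc5* they were *Mrpl11* (0.0123), *Ndufa2* (0.0125) and *Mpv17l2* (0.0126). This likeness was measured on the deposited scale only, where scarce genes are pulled most. On recovered reads *Nlrc5* had a mean ratio of 1.47, beside 1.22, 1.17 and 1.22 for its 3 genes, and *B2m* had a log2 fold change of 0.47, beside 0.57, 0.55 and 0.58 for its 3. None of these 6 genes is on the class I lists used here.

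The class I pathway has further genes beside these 10, and a list of 25 was examined. Of the 22 tested, 8 were higher, 4 lower and 10 without a call, with a median log2 fold change of 0.05 (0.23 on recovered reads). Of the 3 not tested, *H2-M2* was at 0 reads in all libraries and *H2-Q2* and *H2-T3* were near 0. Those shares, 36.4% higher and 18.2% lower, compare with 31.6% and 31.4% of all genes tested. On this scaling the list as a whole thus lay near the background in its higher genes. Grouped after the calls were seen, 8 of the 14 heavy chain relatives tested were higher and 6 had no call, and of the 8 genes of peptide supply or loading 4 were lower and 4 had no call. When the libraries were set to equal medians, 11 of the 22 were higher and 4 lower, where 6450 and 4214 of all 16746 genes were.

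Among heavy chain relatives, *H2-Q6* had 160, 142 and 163 normalized reads in WT and 308, 327 and 326 in *Piezo1 cKO* libraries (log2 fold change 0.49, limma adjusted p = 2.75e-09). *H2-K2* had 67.9, 67.6 and 68.3 in WT and 153, 162 and 156 in *Piezo1 cKO* libraries (0.40, limma adjusted p = 2.67e-08). Both groups were tight and far apart in these genes. *H2-T22* (0.27), *H2-M3* (0.27), which presents formylated peptides, *H2-Q7* (0.24), *Cd1d1* (0.21), which presents lipids, *H2-T24* (0.12) and *H2-Q10* (0.11) completed the higher group. The relatives without a call were *H2-Q1*, *H2-Q4*, *H2-Q5*, *H2-T10*, *H2-M5* and *Mr1*. Many of these genes are close copies of each other, and how the study treated reads that fit several genes is not given in the sources used here.

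The lower genes were *Canx* (log2 fold change -0.25), the chaperone calnexin that holds new heavy chains, *Psme1* (-0.20), a subunit of the interferon-inducible proteasome activator, *Tapbpl* (-0.20), the tapasin relative that edits peptides, and *Pdia3* (-0.15), the oxidoreductase ERp57 of the loading complex. *Canx* had 8361, 7599 and 7995 normalized reads in WT and 6647, 6083 and 6120 in *Piezo1 cKO* libraries. *Calr* (-0.05, limma adjusted p = 0.0868), *Erap1* (-0.08, limma adjusted p = 0.0532), the peptide-trimming aminopeptidase, and *Psme2* (-0.03, limma adjusted p = 0.332) did not pass. On recovered reads *Erap1* was lower (limma-voom adjusted p = 0.0487). With *Tapbp*, then, the chaperone and editor genes named here, grouped after the calls were seen, were lower or without a call, while both TAP genes were higher.

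**Figure D2:**
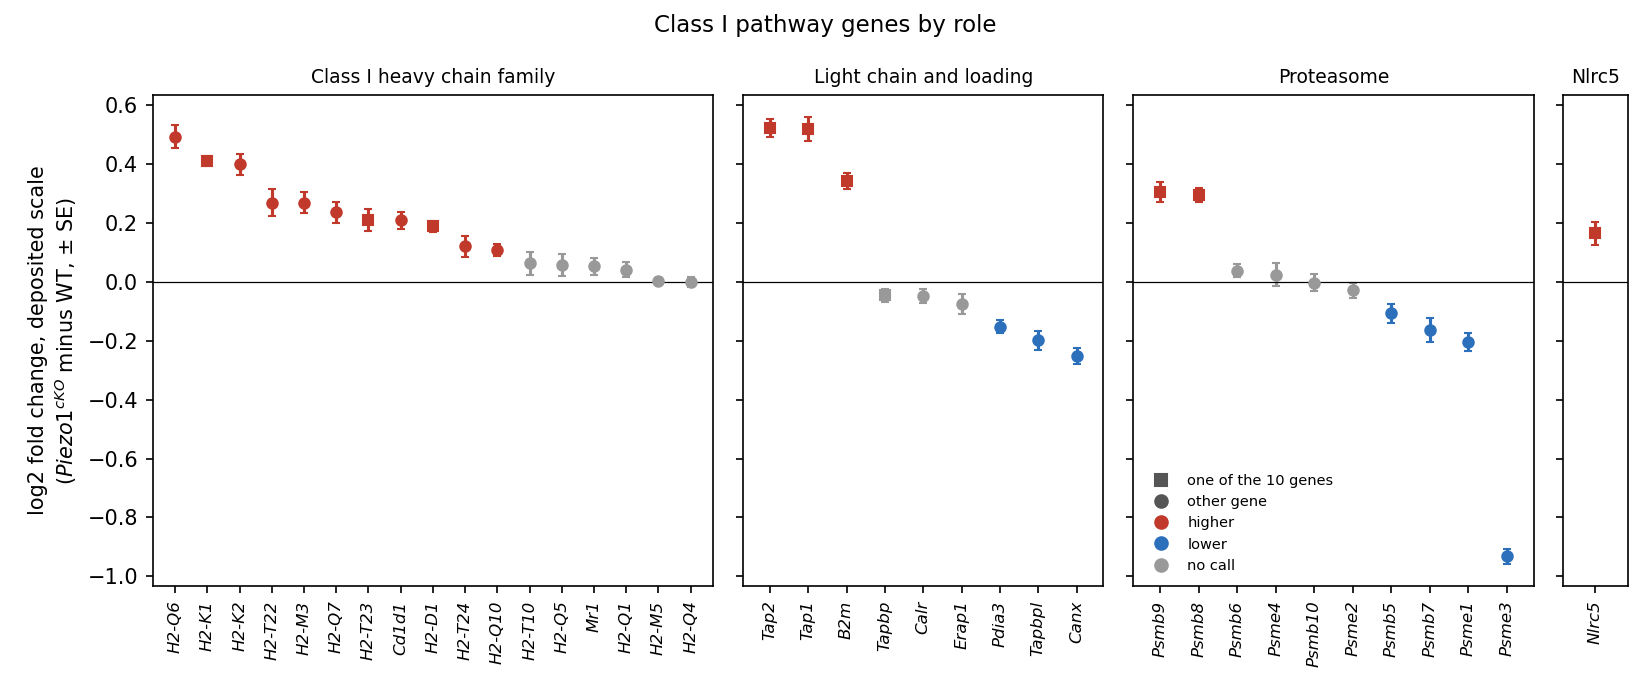
Log2 fold change on the deposited scale (*Piezo1 cKO* minus WT, ± SE, 3 libraries per group) of class I heavy chain genes, light chain and loading genes, proteasome genes and *Nlrc5*; squares are the 10 genes, circles the other list genes, and colour gives the call at an adjusted p under 0.05. *Tap1*, *Tap2*, *B2m*, *Psmb8* and *Psmb9* lie above 0, and *Canx*, *Tapbpl*, *Pdia3* and *Psme3* (-0.93) below it.

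Of 17 factors known to act on class I promoters, 5 were higher (29.4%), 6 lower (35.3%) and 6 without a call, shares near those of all genes tested, and the median log2 fold change was -0.06. *Irf1*, an interferon-induced activator, had 363, 357 and 382 normalized reads in WT and 489, 485 and 489 in *Piezo1 cKO* libraries (log2 fold change 0.23, limma adjusted p = 1.34e-05). *Irf8* (0.22) and *Creb1* (0.20) were also higher. Of the RFX genes, *Rfxap* had 34.0, 23.2 and 37.5 normalized reads in WT and 0 in all 3 *Piezo1 cKO* libraries (log2 fold change -0.24, limma adjusted p = 4.4e-07), while *Rfx5* (-0.08) and *Rfxank* (-0.06) did not pass. *Nfyb* (-0.21) was lower too. *Ezh2*, the histone methyltransferase of Polycomb complex PRC2, which silences class I genes in several tumors, had 1494, 1440 and 1439 normalized reads in WT and 1008, 954 and 955 in *Piezo1 cKO* libraries (-0.39, limma adjusted p = 3.54e-09). Of the other core PRC2 genes on the list, *Eed* (-0.18) was lower and *Suz12* higher, with 521, 489 and 504 normalized reads in WT and 625, 627 and 626 in *Piezo1 cKO* libraries (0.19, limma adjusted p = 9.91e-05). Whether any of these levels bears on the class I genes was not tested.

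Interferon signalling is a main inducer of class I genes. Of 14 receptor and signalling genes, 7 were higher, 6 lower (42.9%) and 1 without a call, beside 31.6% higher and 31.4% lower among all genes tested, and the median log2 fold change was 0.07. *Stat2* (0.24) and *Irf9* (0.22), partners in the type I interferon response, were higher. *Jak2* (-0.36) and the phosphatase gene *Ptpn2* (-0.22) were lower. *Socs3*, a feedback inhibitor of cytokine signalling, had 490, 474 and 565 normalized reads in WT and 10.4, 8.77 and 8.14 in *Piezo1 cKO* libraries (-2.00, limma adjusted p = 1.84e-17). The interferon-induced genes outside antigen presentation named next were picked once their values had been seen. They are not a fixed list, so no share is given for them. *Mx1* rose from 2.91, 4.04 and 0.962 normalized reads in WT to 29.3, 21.4 and 22.4 in *Piezo1 cKO* libraries, a log2 fold change of only 0.16 on the deposited scale. Only the *Piezo1 cKO* group carried the *Mx1-cre* transgene, and whether any of these few reads came from it was not tested. *Ifi47* (0.24) and *Irgm1* (0.16) were higher and *Gbp2* (-0.24) was lower, while *Isg15* (0.01), *Ifit1* (-0.03) and *Oas1a* (-0.08) did not pass. The part of interferon in the class I levels was not tested.

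MHC class II genes, which present peptides to CD4+ T cells, were higher in 7 of 7 cases, beside 31.6% of all genes tested. Their median log2 fold change was 0.93 on the deposited scale and 4.30 on recovered reads. The latter is the value of *Cd74*, with 98.0, 123 and 113 normalized reads in WT and 2197, 2165 and 2192 in *Piezo1 cKO* libraries. Of the class II list, 0 were lower with limma, and 0 at an unadjusted p under 0.05 with limma or limma-voom.

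The sort and the presence of other cells were checked with marker genes, since class I and class II levels differ between blood cells. The counts of each marker list, here and below, stand beside 31.6% higher and 31.4% lower among all genes tested. Each list is too short to set its counts apart from those shares. Of 7 genes of the LSC sort, *Kit*, *Cd34*, *Ptprc* and *Ly6a* were higher and *Meis1* lower, and *Fcgr3* and *Hoxa9* did not pass. *Ly6a*, which encodes the excluded Sca-1, was scarce, with 0.970, 1.01 and 0 normalized reads in WT and 10.4, 16.6 and 7.12 in *Piezo1 cKO* libraries (log2 fold change 0.08, limma adjusted p = 5.35e-04). The summed normalized reads of the 7 genes were 18638, 18272 and 18512 in WT and 21978, 21532 and 21529.9 in *Piezo1 cKO* libraries, with *Fcgr3* the most abundant in WT and *Cd34* in *Piezo1 cKO* libraries. Of 7 dendritic cell markers 6 were tested, of which 5 were higher and 1 lower, and the sums of all 7 were 830, 871 and 879 in WT and 1820, 1794 and 1787 in *Piezo1 cKO* libraries, with *Flt3*, which progenitors also express, the most abundant. Without *Flt3* the sums were 210, 209 and 218 in WT and 167, 227 and 189 in *Piezo1 cKO* libraries, overlapping and with no rise, as genes in this remainder moved in opposite directions. *Zbtb46* fell, with 178, 178 and 188 normalized reads in WT and 68.9, 85.8 and 69.2 in *Piezo1 cKO* libraries, whereas *Xcr1* rose, with 21.3, 12.1 and 19.2 in WT and 50.1, 72.1 and 61.1 in *Piezo1 cKO* libraries. *Cd209a*, *Clec9a* and *Siglech* were higher too, and *Itgax*, which was not tested on the deposited scale, was higher on recovered reads, from 0 in WT to 4.18, 5.85 and 2.04 normalized reads.

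Of 7 B cell markers 4 were tested, of which 3 were higher and 0 lower, with sums over all 7 of 12224, 12586 and 12229 in WT and 22740, 22631 and 22355 in *Piezo1 cKO* libraries, most of it *Ighm*. Without *Ighm* the sums were 1603, 1561 and 1621 in WT and 2499, 2652 and 2445 in *Piezo1 cKO* libraries. *Cd79b* had 1572, 1526 and 1590 normalized reads in WT and 2454, 2613 and 2394 in *Piezo1 cKO* libraries, and *Cd79a* had 7.76, 6.06 and 6.73 in WT and 17.8, 13.6 and 10.2 in *Piezo1 cKO* libraries, both higher, while *Ms4a1* and *Pax5* had at most 3 reads in any library. Of 6 macrophage markers 4 were tested, of which 3 were higher and 0 lower, with sums over all 6 of 610, 632 and 592 in WT and 711, 633 and 674 in *Piezo1 cKO* libraries. *Adgre1* was the most abundant, *C1qa* was at 0 and *Mertk*, also not tested, was at 0 in WT and at 4.18, 1.95 and 3.05 normalized reads in *Piezo1 cKO* libraries, while without *Adgre1* the sums were 0, 2.02 and 0 in WT and 40.7, 53.6 and 45.8 in *Piezo1 cKO* libraries. Among 6 neutrophil markers 4 were tested, of which 0 were higher and 3 lower, with sums over all 6 of 2323, 2282 and 2316 in WT and 1294, 1250 and 1255 in *Piezo1 cKO* libraries, *Csf3r* being the most abundant and *Retnlg* at 0. Without *Csf3r* the sums were 532, 489 and 500.3 in WT and 60.6, 56.5 and 70.2 in *Piezo1 cKO* libraries, with *S100a8* at 229, 206 and 212 in WT and 15.7, 16.6 and 24.4 in *Piezo1 cKO* libraries and *S100a9* lower too (log2 fold change -1.34).

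Of 5 NK cell markers 3 were tested, of which 2 were higher and 1 lower, with sums over all 5 of 4122, 4174 and 3991 in WT and 2529, 2477 and 2513 in *Piezo1 cKO* libraries, nearly all of it *Nkg7*. Without *Nkg7* the sums went up, from 0.970, 1.01 and 0 in WT to 43.9, 43.9 and 60.0 in *Piezo1 cKO* libraries. *Klrb1c* was at 0 in WT and at 33.4, 37.0 and 52.9 normalized reads in *Piezo1 cKO* libraries. *Gzma* had 0, 1.01 and 0 in WT and 10.4, 4.87 and 7.12 in *Piezo1 cKO* libraries. Only 2 of 6 T cell markers had enough reads to be tested, and *Lck* was higher and *Cd3d* lower (limma adjusted p = 6.28e-03). The sums of all 6 were 63.1, 68.6 and 59.6 in WT and 86.7, 61.4 and 104 in *Piezo1 cKO* libraries, most of it *Lck*, with *Cd8a* at 0. Without *Lck* the sums went down, from 10.7, 9.08 and 5.77 in WT to 0, 1.95 and 0 in *Piezo1 cKO* libraries. Of 6 erythroid markers 3 were tested and 0 passed in either direction, and the sums ran from 16.3 to 33.3 over all 6 libraries, with *Hba-a1* the most abundant on average but below *Alas2* in 3 libraries. Of 6 endothelial and stromal markers only *Pecam1* and *Cxcl12* were tested, and both were higher, with sums over all 6 of 2907, 2942 and 2895 in WT and 3692, 3439 and 3456 in *Piezo1 cKO* libraries, nearly all of it *Pecam1*, which myeloid progenitors also express, and without it the sums were 22.3, 32.3 and 12.5 in WT and 39.7, 26.3 and 25.4 in *Piezo1 cKO* libraries, which overlapped. The part of other cells, or of a shift in the state of the sorted cells, in the class I levels was not tested.

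Of the 10 genes, 8 lie in the MHC on chromosome 17, *B2m* lies on chromosome 2 at chr2:122147686-122153083 (+) and *Nlrc5* on chromosome 8 at chr8:94434356-94527272 (+), by GENCODE M21 on GRCm38. *Psmb9* (chr17:34181987-34187764, −), *Tap1* (chr17:34187553-34197225, +), *Psmb8* (chr17:34197721-34201454, +) and *Tap2* (chr17:34203527-34216321, +) are neighbours. From *Tapbp* (chr17:33915899-33929292, +) to *H2-T23* (chr17:36029773-36032855, −), 119 genes were tested, of which 52 were higher (43.7%) and 20 lower. The class II genes *H2-Oa*, *H2-Ob* and *H2-DMb2* are not on the class II list and were set apart after their values had been seen, all 3 being higher. Without these and the class I and class II lists 95 genes remained, 32 of them higher (33.7%) and 20 lower (21.1%), and their median log2 fold change was 0.02. The class I genes of the interval, 16 in number, were higher in 12 cases and had no call in the other 4, with a median of 0.22.

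**Figure D3:**
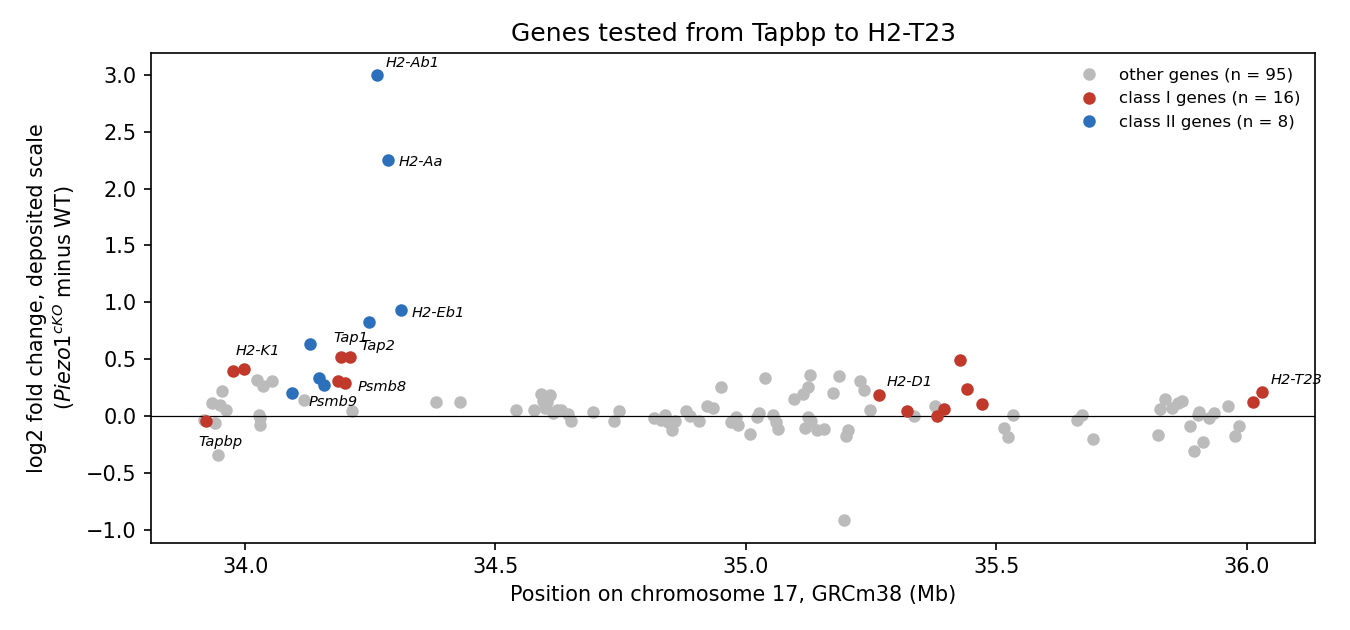
Log2 fold change on the deposited scale (*Piezo1 cKO* minus WT, 3 libraries per group) of the 119 genes tested from *Tapbp* to *H2-T23*, by position on chromosome 17 in Mb (GRCm38); red dots are class I genes (16), blue dots class II genes (8, of which 3 are not on the class II list) and grey dots the remaining 95. *Tap1* and *Tap2* stand at 0.52 and *H2-K1* at 0.41, while the remaining genes have a median of 0.02.

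Neighbouring and related genes share sequence that counting could assign either way. Of 100-base windows of the transcripts, 14.8% of those of *Tapbp*, 8.05% of *Psmb8*, 4.99% of *Tap2*, 3.59% of *H2-D1*, 3.15% of *H2-T23* and 0.957% of *H2-K1* also occur in transcripts of other genes, on either strand. *Tap1* (1.93%) and *Psmb9* (2.73%) share such windows with each other, as first exons of their annotated transcripts overlap on opposite strands, and whether counting used the strand is not given in the sources used here. *B2m* and *Nlrc5* share 0%.

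Since 9 of the genes rose together, their promoters are shown, taken from the RefSeq promoter table on GRCm38.p6, in which 8 of the 10 genes were matched and *Tap2* and *Nlrc5* had no entry. The 250 bases before each start were searched on both strands for GGGATTCCC (a κB motif), AANNGAAA (the core of the motif of interferon regulatory factors), TGACG (a core of CREB/ATF sites) and ATTGG (the reverse of the CCAAT box of NF-Y). Of 27025 promoters, 0.311% held the κB letters, among them *H2-K1* and *H2-D1*, and 21.6% held AANNGAAA, among them *H2-K1*, *H2-D1*, *H2-T23* and *B2m*. The letters AANNGAAA were chosen after a first search with GAAANNGAA, held by 7.16% of promoters, had matched *H2-T23* and *B2m* but not *H2-K1* or *H2-D1*. TGACG was found in 17.9% of promoters and in 5 of the 8, and ATTGG in 34.5% and in 7 of the 8. *Psmb8* held none of the 4 motifs. A match is a description of letters, not of binding.

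TGACG followed on the same strand by ATTGG after 15 to 30 bases, the order of the X2 and Y boxes of MHC promoters, was found in 0.522% of promoters and in 3 of the 8, *H2-K1*, *H2-D1* and *B2m*. The gap was 20 bases in all 3, and a gap of exactly 20, a value chosen after these had been seen, was held by 25 of the 27025 promoters (0.0925%). The stretches are shown to compare them, 5′ to 3′ on the strand of the gene with TGACG and ATTGG in capitals, from chr17:34000359-34000388 (−) for *H2-K1*, chr17:35262993-35263022 (+) for *H2-D1* and chr2:122147609-122147638 (+) for *B2m*.
H2-K1: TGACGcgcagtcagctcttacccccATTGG
H2-D1: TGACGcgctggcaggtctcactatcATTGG
B2m: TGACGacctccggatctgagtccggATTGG
Of the 30 bases, 23 were the same in *H2-K1* and *H2-D1*, 13 in *H2-K1* and *B2m*, and 12 in *H2-D1* and *B2m*.

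Further upstream, both classical heavy chain genes hold the κB letters followed by the reverse of AANNGAAA, both in capitals, at chr17:34000430-34000457 (−) for *H2-K1* and chr17:35262924-35262951 (+) for *H2-D1*. These stretches, shown because the genes differ in how far they rose, had 27 of 28 bases in common.
H2-K1: GGGATTCCCcatctccacagTTTCACTT
H2-D1: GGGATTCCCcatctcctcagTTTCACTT
In *H2-D1* both stretches also lie in the first exon of a longer GENCODE transcript that starts upstream of the RefSeq start.

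The whole 250 bases are printed for *H2-K1* (chr17:34000348-34000597, −), the heavy chain gene with the larger rise, and for *B2m* (chr2:122147437-122147686, +), a class I gene that lies outside the MHC and shares no windows with other genes. Capitals mark matches to the 4 motifs on either strand, and the last base of the *B2m* stretch is the first of its GENCODE transcript.
H2-K1: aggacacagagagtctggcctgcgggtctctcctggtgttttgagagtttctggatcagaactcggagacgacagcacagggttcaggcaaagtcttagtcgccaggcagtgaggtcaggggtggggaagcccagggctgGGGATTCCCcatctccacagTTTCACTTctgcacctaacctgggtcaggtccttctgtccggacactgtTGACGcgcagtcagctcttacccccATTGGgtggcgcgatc
B2m: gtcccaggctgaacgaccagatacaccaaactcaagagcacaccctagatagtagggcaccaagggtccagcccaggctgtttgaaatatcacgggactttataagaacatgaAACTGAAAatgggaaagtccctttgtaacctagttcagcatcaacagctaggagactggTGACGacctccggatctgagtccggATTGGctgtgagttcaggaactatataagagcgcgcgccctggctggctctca

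The stretches before *Tap1* (chr17:34187306-34187555, +) and *Psmb9* (chr17:34187331-34187580, −) face each other and share 225 bases. Of this pair *Tap1* rose more, the ratio of *Psmb9* to *Tap1* per kilobase being 1.11, 0.958 and 1.06 in WT and 0.875, 0.840 and 0.837 in *Piezo1 cKO* libraries. These ranges did not overlap (exact two-sided permutation p = 0.1, the smallest possible).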

How the data were processed

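RNA-seq libraries of 3 WT and 3 *Piezo1 cKO* LSC samples were compared. Per the methods of the authors, reads were cleaned by fastp 0.20.1, aligned on GRCm38 by HISAT2 2.2.1, assigned to genes by featureCounts 2.0.1 and normalized by DESeq2 1.28.1. The deposited values are log2 values in the form of a regularized log, a transform not named in the sources used here. They run from -1.97 to 18.06 for 26402 genes, and 28965 genes are at 0 in all libraries.

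Genes with a mean deposited value of at least 1 (16746) entered a limma fit (lmFit, then eBayes with a trend, no covariates; limma 3.58.1 in R 4.3.3) and adjusted by Benjamini-Hochberg. A count model had been planned only in case the table held counts. To recover reads, size factors, prior weight and dispersion trend were fitted so that values became whole numbers. Over the 18593 genes averaging at least 1 read, 92.7% of values came within 0.1 of a whole number, against 23.2% with the prior weight set 10% off. Recovered reads of 17352 genes with at least 10 reads in total were tested with limma-voom. Both steps were tested on simulated data. Reads carry no molecular identifiers. Libraries of a group were not copies of the same data (chi-square per gene 1.56 to 2.96), which does not show that they came from separate mice. Their spread was small over the 3381 genes averaging at least 1000 normalized reads. The median coefficient of variation was 2.83% in WT and 3.04% in *Piezo1 cKO* libraries, beside 2.18% and 2.25% from counting alone.

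The members and gene lists were chosen with earlier results of these data known. Named are the 10 genes, *Piezo1*, members of other lists by the size of their change (up to 6 per list, every member of short lists), and the 3 genes most like *B2m* and *Nlrc5* among genes with a mean deposited value of at least 4. Other names, including *Psmb10*, *H2-Oa*, *H2-Ob*, *H2-DMb2*, *Eed*, *Suz12*, genes without a call, *H2-T24*, *H2-Q10* and the interferon-induced genes, were picked once their values had been seen. Alternatives were other scalings, filters, recovered reads, no variance trend, a replicate block, each library left out and the DEG thresholds. Some genes counted in the lists are not reported here by name. Exon lengths, the union of all annotated exons of a gene, and positions came from GENCODE M21. The rest used Python 3.11.15, numpy 2.4.6, pandas 2.3.3, scipy 1.17.1 and matplotlib 3.10.9.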

Additional observations from a re-analysis of the deposited data

How the results depend on the processing

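Under 20 alternatives per gene, each of the 9 higher genes stayed higher at an adjusted p under 0.05. *Tapbp* passed with quantile normalization (log2 fold change -0.068, limma adjusted p = 0.0118) and with the replicate block (-0.046, limma adjusted p = 0.0109), so that 1 of the 10 genes was then lower, and not in the other 18 (adjusted p 0.0109 to 0.371 over all 20); the cause was not tested. With the DEG thresholds 0 of the 10 were higher. Over all genes, 4322 passed the DEG thresholds on recovered reads and 4333 on recovered reads scaled by library totals, against 137 on the deposited scale, whose pull makes differences smaller. With a mean of at least 50 reads, 3510 genes were higher, since fewer were tested. The replicate block gave 5542 higher and 5513 lower genes and 137 DEGs. Same-numbered libraries correlated at 0.195, 0.161 and 0.0696, and differently numbered ones at -0.170 to 0.0301. Each library correlated best with the one of its own number, a hint from the data and not the design. Whether same-numbered libraries share anything besides the number was not tested. With each library left out in turn, 4746 to 5051 genes were higher, 4850 to 5070 lower and 134 to 144 DEGs. In every such fit 9 of the 10 genes were higher, and 7 to 10 of the further class I genes were higher and 4 to 5 lower. Of the further class I genes, 11 were higher and 4 lower with equal medians. The replicate block gave 8 higher and 6 lower in that list. Library totals, the leave-one-out fits on recovered reads and the letters AANNGAAA were added after the data had been seen.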
